A study of Homo sapiens with 8 samples.

Results

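The miRNAs described here are the 4 mature products of the hairpins miR-483 and miR-675, namely hsa-miR-483-3p, hsa-miR-483-5p, hsa-miR-675-5p and hsa-miR-675-3p. They were selected by name and made up 4 of the 2588 mature miRNA names in the table. Their abundance was determined by small RNA-seq in 4 parental human tumor-derived cell lines without any treatment. ES-2 derives from ovarian cancer, MV-3 from melanoma, Huh-7 from hepatocellular carcinoma and A-549 from lung adenocarcinoma. Each line was grown in DMEM with FBS, harvested 48 h after seeding and represented by 2 libraries, which the study calls biological replicates. Lines stand for 1 tumor each, and p values measure only the spread between libraries of a line.

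Both hairpins sit in the imprinted IGF2-H19 domain at 11p15. In most normal tissues, IGF2, a fetal growth factor, is expressed from the paternal allele. The non-coding RNA H19 is expressed there from the maternal allele. The miR-483 hairpin is carried by an IGF2 intron, and the miR-675 hairpin is processed from H19 RNA itself. IGF2 and H19 are both abundant in fetal tissues, the liver included.

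According to GENCODE 44 on GRCh38, the miR-483 hairpin (MIR483) spans 76 bases on the minus strand, at chr11:2134134-2134209. It lies inside IGF2 and overlapped an exon in 0 of 10 annotated IGF2 transcripts, so it is intronic. The read-through gene INS-IGF2 covers the same intron. The miR-675 hairpin (MIR675) spans 73 bases on the minus strand, at chr11:1996759-1996831, and lay in an exon of 13 of 31 annotated transcripts of the lncRNA H19. The interval between the hairpins is 137 kb.

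RefSeq (GRCh38.p14) gave mature sequences for 2 members, the arms of miR-675. They are shown with bases 2 to 8, the seed that pairs with target mRNAs, in capitals, since the seed decides which other miRNAs of the table could share targets with them.
miR-675-5p: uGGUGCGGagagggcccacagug
miR-675-3p: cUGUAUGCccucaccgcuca
miR-4466: gGGUGCGGgccggcgggg
The 5p arm maps to chr11:1996800-1996822 and the 3p arm to chr11:1996768-1996787, both on the minus strand. The 5p arm has 23 bases with 69.6% G or C, above the median of 52.2% over all mature sequences of the RefSeq table, and the 3p arm has 20 bases with 60.0%. Of the 2281 table names with a RefSeq sequence, miR-4466 (chr6:156779710-156779727, minus strand) was found with the seed of miR-675-5p. No further name was found with either seed, but the search did not cover the whole genome, so others may carry them. Reads of miR-4466 were scarce too, with 8 reads over all 8 libraries and at most 3 in any library.

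Depth ranged from 1173902 to 2670030 miRNA reads per library. Levels are given as normalised CPM, the deposited values, which are reads per 1000000 miRNA reads divided by a composition factor (TMM) of each library. These factors ranged from 0.593 in A-549 to 1.70 in Huh-7, and values without them are called library CPM. A count of 3 reads, taken as the detection floor, equals 0.845 to 2.45 normalised CPM. The labels were checked against miRNA markers of cell types. The 3 hepatocyte markers (miR-122-5p, miR-122-3p and miR-885-5p) summed to 138399 to 152694 library CPM in Huh-7 and to 1.94 to 46.9 in the other lines. Of the 3 melanocyte markers, miR-211-5p and miR-514a-3p had 0 reads in both MV-3 libraries, and the list summed to 1.29 to 1.70 library CPM there and to 54.7 to 65.8 in Huh-7. The 4 epithelial markers summed to 3200 to 3388 library CPM in Huh-7, 828 to 897 in A-549 and 29.0 to 54.2 in ES-2 and MV-3. Among the 4 blood-cell markers, miR-142-3p counted 542 and 657 reads in the ES-2 libraries and 0 elsewhere, and the whole list summed to 300 to 332 library CPM in ES-2, 131 to 136 in MV-3, 1273 to 1344 in Huh-7 and 188 to 218 in A-549.

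The first question was in which lines the IGF2-intron miRNA is found. Huh-7 cells held large amounts of both miR-483 arms, and the other lines held few or no reads of them. For hsa-miR-483-3p, the more abundant arm, the deposited values were 6322 and 6347 normalised CPM in Huh-7, 11.7 and 10.6 in A-549, 4.44 and 6.59 in MV-3, and 0 and 7.70 in ES-2. Both Huh-7 libraries lay far above the other 6, with no overlap. The values rest on 22452 and 18585 reads in Huh-7, 19 and 13 in A-549, 6 and 12 in MV-3, and 0 and 15 in ES-2. Line means were 6335 ± 18.0 normalised CPM in Huh-7 (SD, n = 2), 11.2 ± 0.752 in A-549, 5.51 ± 1.52 in MV-3 and 3.85 ± 5.45 in ES-2.

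The lines stood in the same order for the other arm. hsa-miR-483-5p was measured at 2334 and 2470 normalised CPM in Huh-7, 0 and 10.6 in A-549, 0 and 3.29 in MV-3, and 0 and 1.54 in ES-2. In each line other than Huh-7, all reads of this arm came from replicate 2, with 13 reads in A-549, 6 in MV-3 and 3 in ES-2. Huh-7 held 8291 and 7232 reads of it. The mean level was 2402 ± 95.7 normalised CPM in Huh-7, 5.32 ± 7.52 in A-549, 1.65 ± 2.33 in MV-3 and 0.770 ± 1.09 in ES-2.

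**Figure D1:**
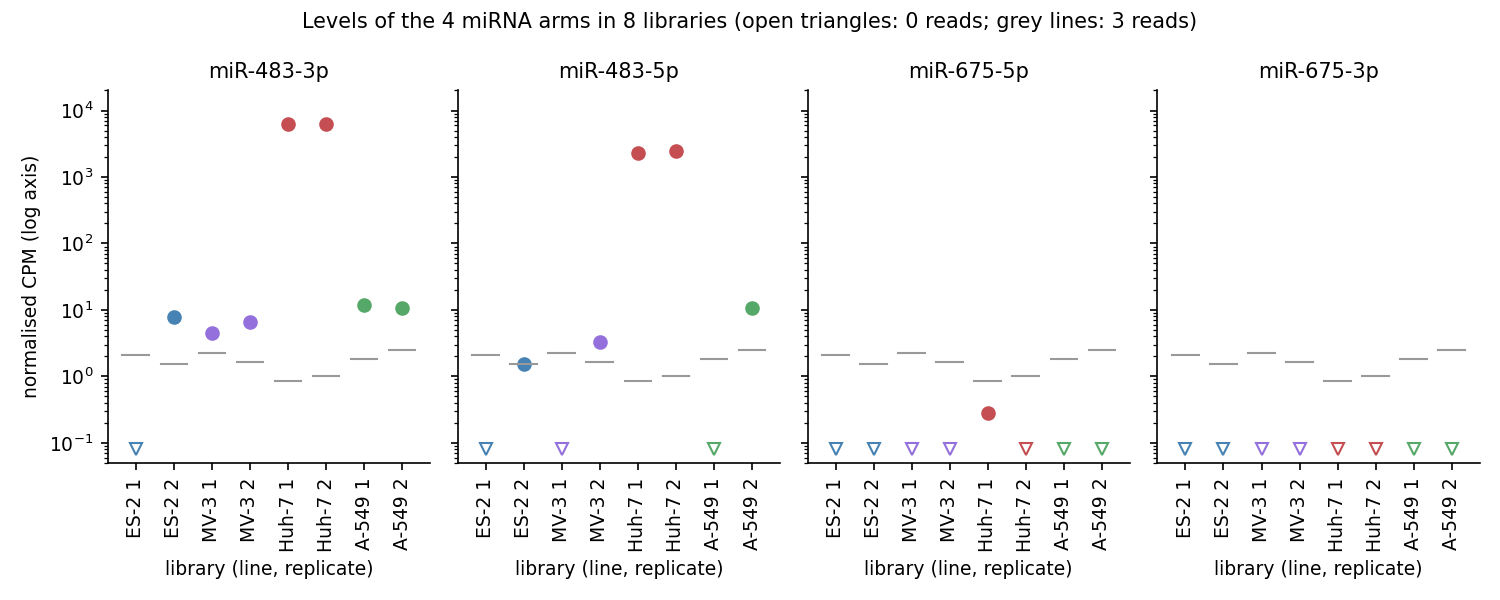
Level of each of the 4 miRNA arms in each of the 8 libraries, in normalised CPM on a log axis, with 1 point per library, open triangles for libraries with 0 reads and grey lines at the level of 3 reads. The Huh-7 libraries hold 6322 and 6347 normalised CPM of miR-483-3p and 2334 and 2470 of miR-483-5p, while the only point for miR-675 is 1 read in Huh-7 replicate 1.

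In Huh-7, miR-483-3p ranked among the abundant miRNAs. It took 1.03% of miRNA reads in replicate 1 (Wilson 95% interval 1.02 to 1.05) and 1.08% in replicate 2 (1.07 to 1.10), and stood at place 16 and place 12 of all names. The 5p arm took 0.381% and 0.421%, at places 36 and 34. Without the composition factor, which is high for Huh-7, miR-483-3p came to 10573 ± 344 library CPM and miR-483-5p to 4012 ± 279 (SD, n = 2). Intervals and floors cover counting error only, because reads are not independent molecules. In bulk RNA, fewer cells with a miRNA and less of it per cell cannot be told apart.

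The differences between lines were tested with limma on log2(normalised CPM + 1) over the 528 miRNAs that passed a filter on low reads, with Benjamini-Hochberg adjustment, and called at an adjusted p below 0.01. Of the 4 members, 2 passed the filter, both from miR-483. The 3p arm would have passed without Huh-7, with 11.7 and 10.6 normalised CPM in the A-549 libraries. The 5p arm passed only through Huh-7, since elsewhere it had 10.6 in A-549 replicate 2 and at most 3.29 in any other library. A name that passed only through Huh-7 had to differ there, so the calls and ranks of miR-483-5p against the other lines are a description. Both arms were higher in Huh-7 than in ES-2. In this pair 49.2% of all miRNAs were called, and 27.7% were called higher in Huh-7. The log2 difference was 11.07 for miR-483-3p (SE 0.92, 95% interval 8.83 to 13.31, adjusted p = 7.77e-05) and 10.56 for miR-483-5p (SE 1.27, 7.47 to 13.64, adjusted p = 0.000442), placing them 3 and 4 from the top of the 528. A difference from MV-3 was also called for both arms, where 47% of all miRNAs were called and 26.9% were higher in Huh-7. Here the log2 difference was 9.95 for miR-483-3p (SE 0.92, adjusted p = 0.000137) and 10.18 for miR-483-5p (SE 1.27, adjusted p = 0.000544).

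Against A-549, both arms were again higher in Huh-7, in a pair with 52.3% of all miRNAs called and 23.7% higher in Huh-7. The log2 difference was 9.03 for miR-483-3p (SE 0.92, adjusted p = 0.000204) and 9.46 for miR-483-5p (SE 1.27, adjusted p = 0.000733). In each of the 3 pairs, both arms stood among the 5 highest differences of all 528 miRNAs. Being called higher in Huh-7 in all 3 pairs was shared by 75 miRNAs, 14.2% of those tested. In the joint test of the 4 lines, in which 68.2% of miRNAs were called, the adjusted p was 0.000153 for miR-483-3p and 0.000765 for miR-483-5p. The quasi-likelihood test of edgeR on recovered reads made the same 6 calls, with adjusted p of at most 4.79e-08 for miR-483-3p and 2.37e-06 for miR-483-5p. All 4 summed marker lists were likewise highest in Huh-7. The other lines held at most 46.9 library CPM of hepatocyte, 897 of epithelial, 332 of blood-cell and 2.91 of melanocyte markers. In Huh-7 the blood-cell sum was mostly miR-486-5p (2766 and 2306 reads) and the epithelial sum mostly miR-200b-3p (6558 and 5442). The melanocyte sum was mostly miR-204-5p (141 and 87). Other members went the other way. Huh-7 had no read of miR-142-3p, against 542 and 657 in ES-2, and miR-141-3p had 4 and 3 reads in Huh-7 against 7 and 11 in ES-2. The marker miR-205-5p was near absent from all lines, with 4 reads in A-549 replicate 2 only. The part of the markers in these differences was not tested.

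The size of some differences turned on 1 library. For miR-483-3p, Huh-7 minus ES-2 was 9.51 without ES-2 replicate 1, which had 0 reads, and 12.63 without ES-2 replicate 2, and it was called in both cases. For miR-483-5p, Huh-7 minus A-549 was 7.69 without A-549 replicate 1 and 11.23 without A-549 replicate 2. Huh-7 minus MV-3 was 9.13 and 11.23 without MV-3 replicate 1 and 2, and Huh-7 minus ES-2 was 9.88 and 11.23 without ES-2 replicate 1 and 2, all called.

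Some calls for miR-483-5p were lost under other settings. With a pseudocount of 0.1 instead of 1, the adjusted p rose to 0.0111 against ES-2, 0.014 against MV-3 and 0.0173 against A-549, although the log2 difference itself grew to 12.53, 12.01 and 11.18. Without Huh-7 replicate 1 or replicate 2, it was 0.0113 or 0.0109 against MV-3, with log2 differences of 10.22 and 10.14, and 0.0131 or 0.0123 against A-549, with 9.50 and 9.42.

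**Figure D2:**
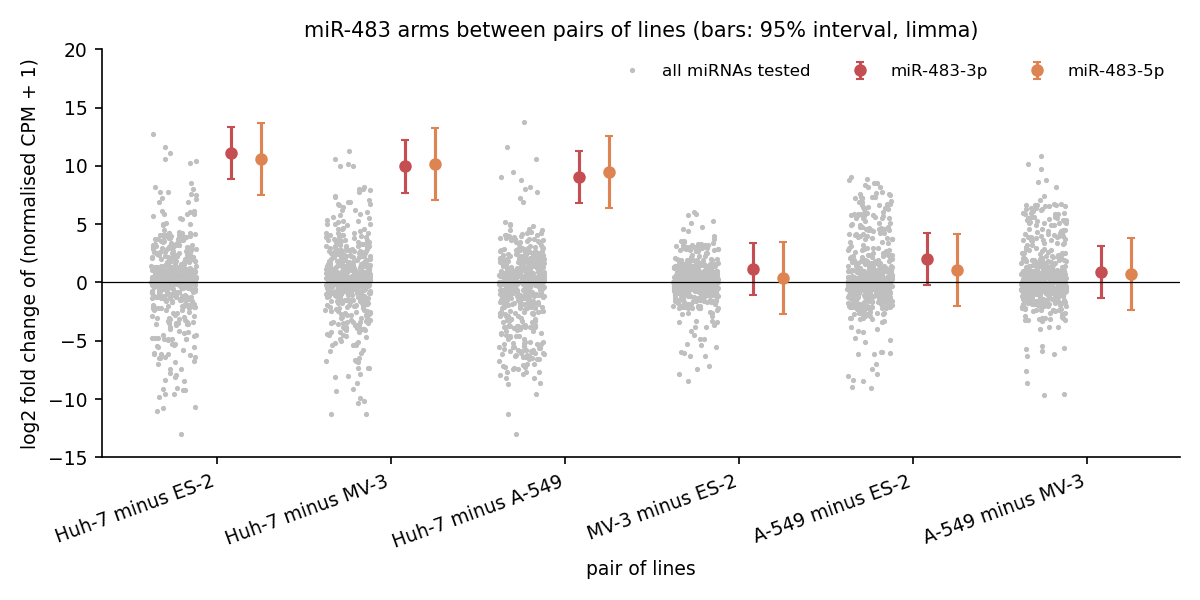
Log2 difference of (normalised CPM + 1) for each pair of lines, with 1 grey point per tested miRNA and coloured points with 95% intervals (limma) for the miR-483 arms. Both arms lie at 9.03 to 11.07 in the 3 pairs with Huh-7, while all intervals in the 3 pairs without Huh-7 include 0.

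A fold change against a line with so few reads is uncertain, so pooled reads were compared as well. For miR-483-3p, the normalised ratio of Huh-7 to ES-2 was 1430 (exact 95% counting interval 867 to 2556), the ratio to MV-3 was 1116 (706 to 1884) and the ratio to A-549 was 564 (399 to 824). For miR-483-5p, the corresponding ratios were 2705 (926 to 13120), 1267 (582 to 3453) and 525 (307 to 986), the first of them resting on 3 ES-2 reads. Scaling by library size only raised the miR-483-3p ratios to 2782, 1595 and 1559, and the miR-483-5p ratios to 5263, 1810 and 1451.

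Among ES-2, MV-3 and A-549, no difference of a miR-483 arm passed the threshold. Of the 6 tests (2 arms in 3 pairs), 0 were called by limma, 0 had an unadjusted p below 0.05, and 0 were called by edgeR or DESeq2. The arm miR-483-5p passed the filter only through Huh-7 and had 0 reads in replicate 1 of each of these lines. It could hardly be called here, so its results are a description. The background was 25.8% of miRNAs called between MV-3 and ES-2, 41.3% between A-549 and ES-2 and 39.6% between A-549 and MV-3. For miR-483-3p, the log2 difference was 1.12 for MV-3 minus ES-2 (95% interval -1.12 to 3.36, adjusted p = 0.412), 2.04 for A-549 minus ES-2 (-0.20 to 4.28, adjusted p = 0.108) and 0.92 for A-549 minus MV-3 (-1.32 to 3.16, adjusted p = 0.442). For miR-483-5p it was 0.38 (-2.71 to 3.46), 1.10 (-1.99 to 4.18) and 0.72 (-2.37 to 3.80) for the same pairs in order, with adjusted p of 0.892, 0.512 and 0.677. These intervals are wide, and most of them hold differences of several fold in either direction. For miR-483-3p the result turned on ES-2, whose libraries held 0 and 15 reads. Without ES-2 replicate 2, MV-3 exceeded ES-2 by 2.68 (adjusted p = 0.00304) and A-549 exceeded it by 3.60 (adjusted p = 0.000634) on the log2 scale, whereas without ES-2 replicate 1 the sign for MV-3 minus ES-2 turned to -0.44.

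The remaining reads of miR-483 outside Huh-7 were set beside miRNAs that are also abundant in Huh-7. On a scale where the mean library CPM in Huh-7 is 10000, miR-483-3p stood at 0 and 6.18 in ES-2, 4.83 and 7.33 in MV-3, and 6.73 and 5.97 in A-549. All libraries except ES-2 replicate 1 thus lay between 4.83 and 7.33 on this scale, on 6 to 19 reads each. In normalised CPM the same libraries ran from 4.44 to 11.7, so their closeness depends on the scaling. The miR-483-5p arm stood at 3.26 in ES-2 replicate 2, 9.65 in MV-3 replicate 2 and 15.7 in A-549 replicate 2. For miR-148a-3p, a miRNA enriched in liver, the range over the same 6 libraries was 2.35 to 9.06. For miR-122-5p, the major miRNA of hepatocytes, the value was 0.258 and 1.78 in ES-2, 3.23 and 2.22 in MV-3, and 0.321 and 0.139 in A-549. The hepatocyte marker miR-885-5p was at 3.21 and 6.08 in MV-3 and had no read in the other 4. The marker miR-122-3p had no read in any of the 6. Its mean in Huh-7 was only 420 library CPM, so a level like that of miR-483-3p on this scale would lie below the floor of 3 reads. The lack of miR-122-3p reads is therefore uninformative here. The source of the miR-483 reads outside Huh-7 was not tested.

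**Figure D3:**
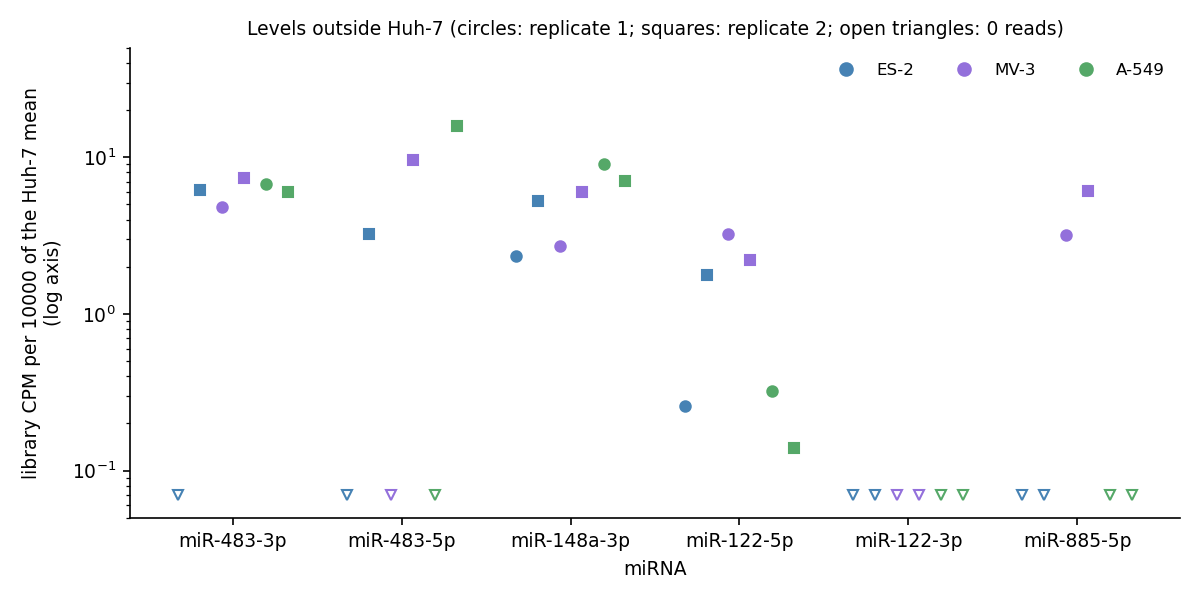
Level of the miR-483 arms and of 4 miRNAs abundant in Huh-7 in the libraries of the other lines, in library CPM per 10000 of the Huh-7 mean on a log axis, with open triangles at 0 reads. The miR-483-3p points lie between 4.83 and 7.33 in 5 of the 6 libraries, and the miR-148a-3p points between 2.35 and 9.06. For miR-122-3p, such levels would lie below the floor of 3 reads.

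Next, the H19-derived hairpin was compared with the IGF2-intron hairpin. Although both belong to the same imprinted domain, miR-675 was close to undetected. Its 5p arm, hsa-miR-675-5p, had 1 read in Huh-7 replicate 1, equal to 0.282 normalised CPM and below the floor. It had 0 reads in the other 7 libraries. The 3p arm, hsa-miR-675-3p, had 0 reads in all 8 libraries. The total was thus 1 read of 15303892, and in a single library a count of 0 allows a share of up to 0.000112% (A-549 replicate 1) to 0.000256% (MV-3 replicate 1) of miRNA reads. Neither arm passed the filter, so neither was among the 528 tested. In the fit of all 1327 names with a read, miR-675-5p differed by 0.18 on the log2 scale between Huh-7 and each other line, with adjusted p of 0.537 to 0.562.

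Within Huh-7, 56560 reads of miR-483 stood against 1 read of miR-675, a ratio with an exact 95% counting interval of 10151 to 2.23e+06. By arm, the ratio of miR-483-3p to miR-675-5p was 41037 (7365 to 1.62e+06) and that of miR-483-5p to miR-675-5p was 15523 (2786 to 613165). Against miR-675-3p, with 0 reads, miR-483-3p was at least 13679-fold and miR-483-5p at least 5174-fold higher, computed against 3 reads over both Huh-7 libraries. Of all member reads, miR-483 held 99.9967% in Huh-7 replicate 1 and 100% in every other library with a member read. Reads of different miRNAs are captured with unequal efficiency by ligation-based library kits, so these are ratios of reads and not of molecules.

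The arms of miR-483 were then compared with each other. In Huh-7 the 3p arm prevailed by a like margin in both libraries. It held 73.0% of the 30743 miR-483 reads of replicate 1 (Wilson 95% interval 72.5 to 73.5) and 72.0% of the 25817 reads of replicate 2 (71.4 to 72.5), a mean of 72.5% ± 0.738 (SD, n = 2) or 2.64 reads per read of the 5p arm in the pooled libraries. The intervals of the replicates did not overlap before rounding, so the replicates differed by slightly more than counting error. Most hairpins were more one-sided. Among 212 hairpins with at least 20 reads in both Huh-7 libraries, the minor arm had a median share of 3.72%, compared with 27.5% for miR-483, and 32 of the 211 other hairpins had an equal or larger minor arm.

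In the other lines the arm share was measured on few reads. The 3p arm held 83.3% of 18 reads in ES-2 replicate 2 (60.8 to 94.2), 100% of 6 reads in MV-3 replicate 1 (61.0 to 100) and 66.7% of 18 reads in MV-3 replicate 2 (43.7 to 83.7). In A-549, it held 100% of 19 reads in replicate 1 (83.2 to 100) and 50.0% of 26 reads in replicate 2 (32.1 to 67.9). The A-549 replicates therefore did not overlap within their counting intervals. Pooled over the 3 lines, 65 of 87 reads came from the 3p arm, or 74.7% (64.7 to 82.7), and the pooled Huh-7 share of 72.6% lies within this interval. A test of the arm difference between lines required at least 20 reads of the hairpin in each of the 4 libraries compared. Per pair of lines, 134 to 144 of 838 hairpins with both arms qualified, and miR-483 and miR-675 qualified in 0 of 6 pairs.

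**Figure D4:**
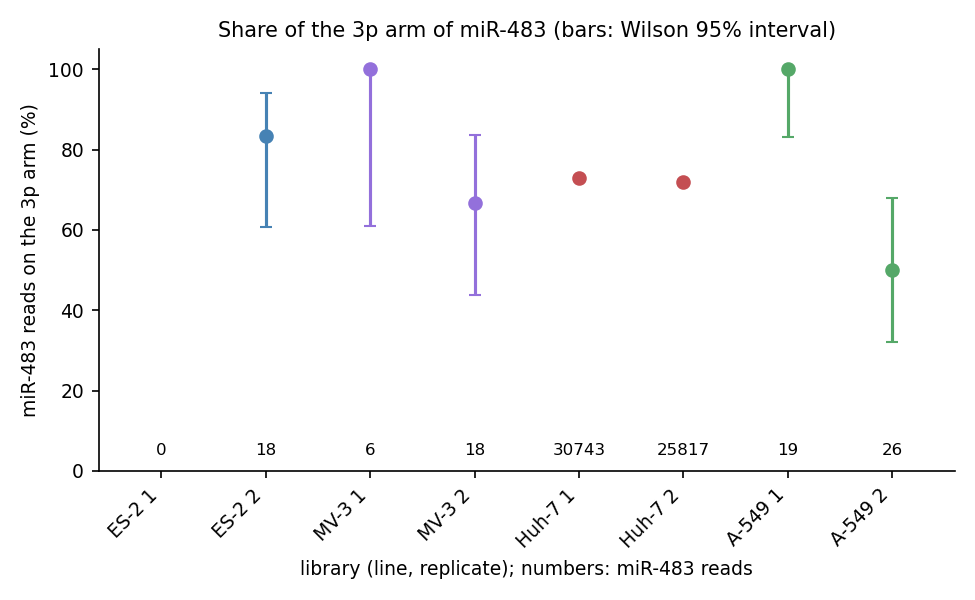
Share of miR-483 reads that came from the 3p arm in each library, in percent, with Wilson 95% intervals and the number of miR-483 reads printed above the axis. The Huh-7 libraries lie at 73.0% and 72.0% on 30743 and 25817 reads, while the other libraries spread from 50.0% to 100% on 6 to 26 reads.

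To describe which miRNAs followed miR-483 across the series, Pearson's r of log2(normalised CPM + 1) was computed over the 8 libraries. The points are 4 lines with 2 libraries each and share their lines, so the coefficients are a description without a test. The arms of miR-483 correlated with each other at r = 0.967. The 5 miRNAs most like miR-483-3p were miR-500a-3p (0.993), miR-148a-3p (0.987), miR-1306-5p (0.985), miR-532-5p (0.984) and miR-660-5p (0.976). The hairpins of miR-532, miR-500a and miR-660 lie within 10.2 kb of each other on chromosome X, from 50003148 to 50013337 on the plus strand. None of these 5 hairpins lies on chromosome 11.

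Their sizes of difference varied widely. Liver-enriched miR-148a-3p had a mean of 16851 normalised CPM in Huh-7 and 10.5 to 37.7 in the other lines, the only one of the 5 with a contrast of a size like that of miR-483. The chromosome X miRNAs were also present elsewhere, with line means of 509 for miR-500a-3p in Huh-7 against 67.7 to 101 in the others, 867 against 102 to 184 for miR-532-5p, and 371 against 42.2 to 85.9 for miR-660-5p. The mean of miR-1306-5p was 124 against 23.4 to 28.2. For miR-483-5p, the list was miR-93-5p (0.984), miR-1306-5p (0.980), miR-1908-5p (0.974), miR-548ar-3p (0.971) and miR-148a-3p (0.971), so 2 miRNAs were common to both lists. In this list, miR-93-5p, a member of the miR-17 family, differed least, with 8209 normalised CPM in Huh-7 and 4925 to 5125 in the other lines. The means were 183 against 26.4 to 34.0 for miR-1908-5p, whose hairpin lies on chromosome 11 but far from the members at 61815161 to 61815240, and 16.3 against 0 to 2.04 for miR-548ar-3p. All 8 miRNAs of the lists were called higher in Huh-7 in the 3 pairs, except miR-548ar-3p against A-549 (log2 difference 2.93, adjusted p = 0.0111). Of all miRNAs tested, 75 (14.2%) were called higher in Huh-7 in all 3 pairs. The 8 were picked from these same libraries for following miR-483, which is high in Huh-7 alone, so these calls are a description.

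Finally, miR-483 and miR-675 were set beside neighbouring miRNAs and other imprinted miRNAs. Within 2 Mb of the member hairpins, 11 further mature names are annotated, of which 5 had a read and 1 passed the filter. This was miR-210-3p, the classical miRNA of the hypoxia response, whose hairpin (chr11:568089-568198, minus strand) lies 1429 kb from the nearest member hairpin. Its reads were 0 and 2 in ES-2, 37 and 31 in MV-3, 79 and 66 in Huh-7, and 7 and 14 in A-549. Its means were 22.2 ± 7.34 normalised CPM in MV-3 and 22.4 ± 0.210 in Huh-7 (SD, n = 2), with a log2 difference of 0.05 (95% interval -1.38 to 1.48, adjusted p = 0.981) that turned to -0.04 with RLE factors. It was higher than in ES-2 in both, by 3.99 in MV-3 (adjusted p = 0.00227) and 4.04 in Huh-7 (adjusted p = 0.00115). The difference between Huh-7 and A-549 was 1.52 with TMM factors (adjusted p = 0.0611) and 2.85 with library size only (adjusted p = 0.00315).

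The imprinted cluster at 14q32 (from MIR493 to MIR656, in the DLK1-MEG3 domain) showed its high levels in another line. Of 91 names, 85 had a read and 52 passed the filter. Huh-7 fell below A-549 in all 52 by the test, beside 28.6% of all miRNAs called lower in that pair, with a median log2 difference of -5.75 (0.09 over all miRNAs). In A-549, 52 were also called higher than in ES-2, beside 23.7% of all miRNAs, and 47 higher than in MV-3, beside 24.1%. With library size only, these counts were 50, 50 and 39. A name that passed the filter only through A-549 had to differ there, and could hardly be called between lines with few reads of it. The counts above and those that follow for the other pairs are therefore a description and no measure of likeness. Between Huh-7 and ES-2, 1 of the 52 was called, higher in Huh-7, beside 49.2% of all miRNAs called in either direction. Between Huh-7 and MV-3, 1 was higher and 1 lower, beside 47% of all miRNAs called, and with library size only the lower call was lost. The most abundant ones were miR-493-5p, with 1675 ± 146 normalised CPM in A-549 and 10.8 ± 13.3 in Huh-7, miR-369-3p, with 1432 ± 78.2 and 9.19 ± 5.83, and miR-409-3p, with 1342 ± 131 in A-549 and 1.13 and 19.5 in the Huh-7 libraries.

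Other imprinted miRNAs followed neither pattern. The primate-specific cluster at 19q13 had reads for 2 of its 61 names, and none was tested. miR-335, from an intron of MEST, was high in Huh-7 and A-549: the 3p arm averaged 423 normalised CPM in Huh-7, 481 in A-549, 45.8 in ES-2 and 0.644 in MV-3. Huh-7 exceeded MV-3 by 8.01 on the log2 scale (adjusted p = 1.75e-07), whereas the difference from A-549 was -0.18 (adjusted p = 0.414) and turned to 1.29 (adjusted p = 0.000756) with library size only. The 5p arm of miR-335 averaged 211, 267, 3.02 and 0.740 normalised CPM in the same order of lines. miR-296-3p, from the GNAS region, went the other way, with means of 133 normalised CPM in MV-3, 59.4 in ES-2, 9.01 and 17.1 in the Huh-7 libraries and an average of 0.717 in A-549. The log2 difference of Huh-7 was -3.31 from MV-3 (adjusted p = 0.000351) and 2.97 from A-549 (adjusted p = 0.000569). Of the 4 tested names of this list, Huh-7 minus ES-2 gave 2 higher and 2 lower, beside 27.7% and 21.6% of all miRNAs, and Huh-7 minus MV-3 gave 2 and 2, beside 26.9% and 20.1%. Huh-7 minus A-549 gave 1 call, higher in Huh-7, beside 23.7% of all miRNAs. With library size only, the counts were 2 and 1 against ES-2, where miR-296-3p lost its call (adjusted p = 0.0251), and 2 calls, both higher in Huh-7, against A-549.

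**Figure D5:**
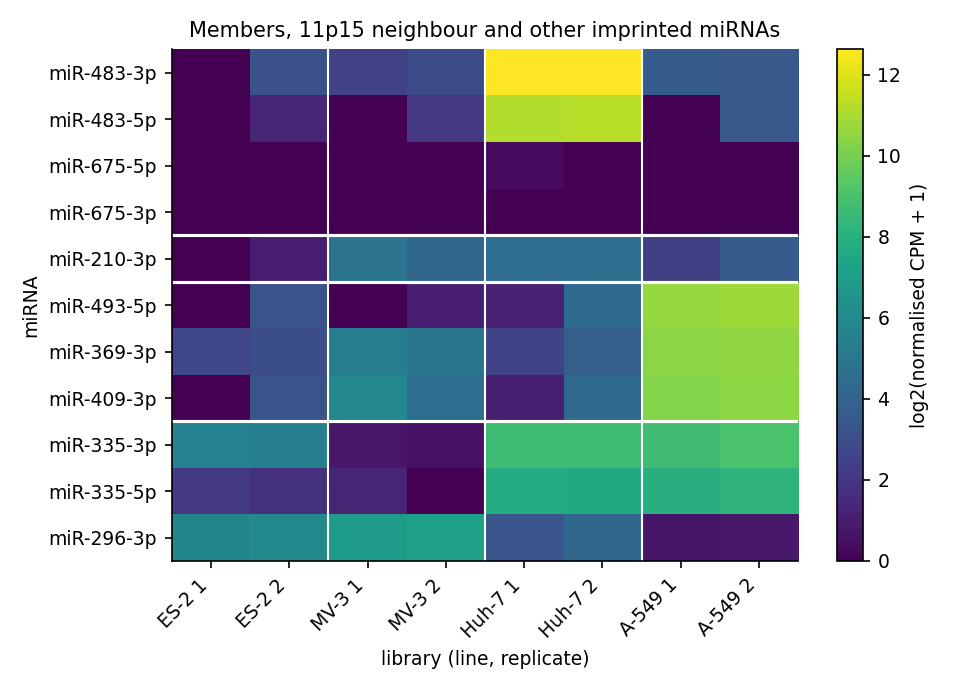
Heat map of log2(normalised CPM + 1) in the 8 libraries for the 4 members, the tested 11p15 neighbour miR-210-3p, and the most abundant miRNAs of the 14q32 cluster and of the other imprinted hosts. The miR-483 arms are bright in the Huh-7 columns, the 14q32 miRNAs (means of 1342 to 1675 normalised CPM) in the A-549 columns, and the miR-675 arms are dark throughout.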

How the data were processed

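Small RNA-seq libraries were made from total RNA of 4 cell lines, with 2 libraries per line, and grouped by their labels. Per the study's methods and the submitters' processing notes, reads were trimmed with Cutadapt 1.14, aligned to GRCh38 (hg38) with Bowtie2 2.3.2, counted on mature miRNAs of miRBase 21 with featureCounts 1.5.3 and normalised with edgeR 3.18.1. How reads with several alignments, strand and the random adapter bases of the kit were handled is not given in the sources used here. The authors deposited 1 table of normalised signal values, in which CPM (counts per 1000000 miRNA reads) are divided by TMM factors, so that columns sum to different totals. Every value (100%) was a whole multiple of a constant of its library within 0.001, and whole reads were recovered from these multiples. In replicate order, libraries held 1663181 and 2294994 reads (ES-2), 1173902 and 1549279 (MV-3), 2173587 and 1718250 (Huh-7), and 2670030 and 2060669 (A-549). Replicates differed by more than counting noise, with chi-square per degree of freedom of 8.53 to 15.6. The 2813 entries were summed to 2588 names, of which 167 have several entries.

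After filtering with filterByExpr, 528 names were fitted with limma 3.58.1 (R 4.3.3) on log2(normalised CPM + 1), with 1 term per line, a mean-dependent prior variance and 4 residual degrees of freedom. This scale understates the change of miRNAs with few reads. P values were adjusted by Benjamini-Hochberg over all names of a comparison and called below 0.01. The limma fit was also run on simulated reads with changes far smaller than those of miR-483, so that run does not bear on them. Hairpins were placed with GENCODE 44. Members, lists and tests were chosen with earlier results of these data known. Named miRNAs are the members, miRNAs sharing a seed with a member, tested 11p15 neighbours, the 3 most abundant per imprinted list, the 5 with the highest r to each tested member, and the cell type markers. Alternatives were other scalings (RLE, library size only), a pseudocount of 0.1, other filters, edgeR 4.0.16 and DESeq2 1.42.0 on recovered reads, a threshold of 0.05, a replicate block, unsummed entries, fits of the 2 lines compared, and leaving out each library.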

Additional observations from a re-analysis of the deposited data

How the results depend on the processing

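The differences of miR-483-3p between Huh-7 and each other line kept their direction and their call under all 19 alternatives, with log2 differences of 9.51 to 12.81 against ES-2, 9.71 to 10.50 against MV-3 and 8.80 to 10.42 against A-549. For miR-483-5p the direction against Huh-7 held in every alternative, but the call was lost in some. A pseudocount of 0.1 gave 12.53 (adjusted p = 0.0111) against ES-2, 12.01 (0.014) against MV-3, 11.18 (0.0173) against A-549 and a joint adjusted p of 0.0216. Using only the libraries of the 2 lines gave 9.46 against A-549 with an adjusted p of 0.0103. Leaving out single libraries gave 9.13 to 11.23 against MV-3, 7.69 to 11.23 against A-549 and a joint adjusted p of 0.00121 to 0.0199, above 0.01 without either Huh-7 library. The cause was not tested.

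Among the lines with few miR-483 reads, signs turned in 4 of 6 comparisons when single libraries were left out. Here the ranges were -0.44 to 2.68 (miR-483-3p, MV-3 minus ES-2), -0.67 to 1.43 (miR-483-5p, MV-3 minus ES-2), -0.67 to 2.87 (miR-483-5p, A-549 minus ES-2) and -1.05 to 2.49 (miR-483-5p, A-549 minus MV-3). For miR-483-3p, A-549 minus ES-2 (0.48 to 3.60) and A-549 minus MV-3 (0.68 to 1.16) kept their sign. With fits of the 2 lines alone, 73 miRNAs differed between MV-3 and ES-2 instead of 136, and 145 between A-549 and ES-2 instead of 218. Scaling by library size only shifted the median log2 difference of all miRNAs by 0.74, 0.41 and 1.28 for Huh-7 minus ES-2, MV-3 and A-549. It turned the split of higher and lower calls from 146 and 114 to 227 and 87 against ES-2, and from 125 and 151 to 244 and 111 against A-549. It went from 142 and 106 to 187 and 92 against MV-3. In the pairs without Huh-7 the split went from 61 and 75 to 85 and 58 (MV-3 minus ES-2), from 125 and 93 to 112 and 140 (A-549 minus ES-2), and from 127 and 82 to 82 and 159 (A-549 minus MV-3).

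Of the 5 miRNAs most like miR-483-3p, 2 were in the list by Spearman's rho and 3 with library size only. For miR-483-5p, 4 and 2 of 5 were. Replicate numbers were not taken as pairing, since deviations of equally numbered libraries correlated at only -0.05 to 0.232. With the replicate block, 249 miRNAs differed between Huh-7 and ES-2 (260 without it), and no call of a miR-483 arm changed (adjusted p for Huh-7 minus ES-2 of 0.000119 for the 3p arm and 0.000146 for the 5p arm). The alternatives for the test of arm shares gave no values, because no hairpin of the members qualified in any pair. Depth limits what can be said of miR-675: levels below the floor of 3 reads, or 0.845 to 2.45 normalised CPM, were not counted as detected.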
